A study of Mus musculus with 15 samples.

Results

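The mesothelium is the single layer of flat cells that covers the lung as the visceral pleura and lines the body cavities. Its cells secrete a lubricating fluid, carry keratins like an epithelium, and express a small set of genes that few other cells of the adult lung use. In whole-lung RNA these cells are a thin outer rind, so their transcripts report on pleural tissue within a sample that is mostly alveoli, airways, vessels and immune cells. A set of 8 genes widely used to recognise mesothelial cells, Msln, Muc16, Upk3b, Upk1b, Gpm6a, Lrrn4, Wt1 and Bnc1, were followed here. They were listed by name as known markers, by a rule that uses none of the measured values, though with earlier results of these data known, and make up 8 of the 33340 genes in the deposited table. All 8 passed the filter on low counts and were among the 17457 genes tested.

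The samples were whole lungs of male C57BL/6 mice, 10 to 12 weeks old in the study's methods, which received bleomycin, a DNA-damaging agent that scars the lung, at 5 U/kg into the trachea. Polyadenylated RNA was sequenced from lungs titled as controls (day 0, n = 4) and at day 7 (n = 4), day 14 (n = 4) and day 21 (n = 3) after the instillation. The treatment label of day 0 replicates 1 to 3 gave no treatment, but that of day 0 replicate 4 named bleomycin, and this library was kept at day 0 by its title. The labels did not say that the libraries of a day came from separate animals, so p-values measure the spread between these libraries. No mock-instilled group entered the comparisons, so time after instillation and the procedure itself cannot be told apart. A bulk lung sample also cannot separate a change in the number of mesothelial cells from a change in RNA per cell.

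Each library held between 15652008 and 18020661 counted reads. The share of reads from mitochondrial genes ran from 2.03% to 4.22% and differed between libraries of the same day. Summed levels of 7 heart muscle markers, which include Myh6 and Tnnt2, were 193 to 757 CPM, the counts of a gene scaled to the size of the library, in 4 libraries (day 0 replicates 3 and 4, day 7 replicate 4 and day 21 replicate 1) and 18.8 to 57.8 CPM in the other libraries. Between 0 and 2 of the 7 markers had no count in a library. Calls that changed without those 4 libraries, or within libraries of similar mitochondrial share, are given as such.

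Promoter sequence helps to place the markers, since the mesothelial transcription factor Wt1 and the TEAD factors, which bind DNA for the Yap and Taz co-activators, are both known to act in these cells. RefSeq promoter entries (GRCm38.p6) were found for 5 of the 8 markers. The 250 bases before the start are shown for 4 of them, 5′ to 3′ on the strand of the gene, and capitals mark the letters GGAATG of the TEAD motif or their reverse complement CATTCC. The Upk3b stretch lies at chr5:136038246-136038495 on the plus strand, that of Lrrn4 at chr2:132880863-132881112, that of Muc16 at chr9:18674604-18674853 and that of Bnc1 at chr7:81992300-81992549, all but the first on the minus strand.
Upk3b: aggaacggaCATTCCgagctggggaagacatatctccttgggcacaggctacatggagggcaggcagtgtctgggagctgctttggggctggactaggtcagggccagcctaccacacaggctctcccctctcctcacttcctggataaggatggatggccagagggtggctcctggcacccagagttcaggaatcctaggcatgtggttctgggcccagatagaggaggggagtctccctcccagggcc
Lrrn4: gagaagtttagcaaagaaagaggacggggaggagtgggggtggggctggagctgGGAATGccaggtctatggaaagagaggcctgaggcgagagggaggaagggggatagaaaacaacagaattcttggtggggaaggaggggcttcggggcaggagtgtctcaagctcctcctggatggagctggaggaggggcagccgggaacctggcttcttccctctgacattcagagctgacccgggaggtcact
Muc16: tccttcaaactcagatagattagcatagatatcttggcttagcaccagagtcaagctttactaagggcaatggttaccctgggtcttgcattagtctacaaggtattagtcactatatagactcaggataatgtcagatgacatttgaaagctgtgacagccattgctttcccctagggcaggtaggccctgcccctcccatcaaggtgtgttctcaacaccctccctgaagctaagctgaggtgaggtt
Bnc1: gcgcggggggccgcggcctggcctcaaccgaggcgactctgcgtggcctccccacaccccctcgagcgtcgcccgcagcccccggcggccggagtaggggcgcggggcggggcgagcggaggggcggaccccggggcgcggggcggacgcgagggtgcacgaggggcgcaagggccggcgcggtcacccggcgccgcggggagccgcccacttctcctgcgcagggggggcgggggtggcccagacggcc
The TEAD letters stood 241 to 236 bases before the start of Upk3b on the opposite strand, and 196 to 191 bases before the start of Lrrn4 on its own strand. They were also found before one of the 2 listed starts of Gpm6a, and in 12.6% of all 32851 mouse promoters of this length. The letters GCGTGGG of the WT1 motif were in none of the stretches found for the 5 markers and in 4.3% of all promoters, searched on both strands. These matches describe the letters only.

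The markers ranged widely in level. Per kilobase of exon, so that genes could be compared, Gpm6a stood highest at day 0 with 31.4 ± 10.7 CPM per kb (SD, n = 4 here and for the other day 0 means), followed by Msln with 29.4 ± 6.79, Upk3b with 29.4 ± 8.69 and Upk1b with 26.5 ± 3.77. These 4 genes differed by less than their spread. Lrrn4 followed at 7.9 ± 4.29 CPM per kb, then Bnc1 at 1.3 ± 0.771, Wt1 at 0.655 ± 0.132 and Muc16 at 0.511 ± 0.335, and the SD ranges of the last 3 overlapped. At day 14 Msln stood alone at the top with 143 ± 78 CPM per kb (n = 4), against 28.4 ± 14.9 for Upk3b, the next in order. By this measure Msln moved from rank 1583 of 17437 genes at day 0 to rank 817 at day 7, 267 at day 14 and 284 at day 21, whereas Gpm6a went from 1451 to 1847 between days 0 and 21.

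Msln was the only marker to pass the thresholds in the fit of all 15 libraries, standing 4.86-fold above day 0 at day 14 and 4.38-fold at day 21. That no other marker passed them does not show that the others were unchanged. Msln encodes mesothelin, a GPI-anchored surface protein, and lies at chr17:25748613-25754378 on the minus strand. Its level was 114, 101, 77.7 and 68.6 CPM in day 0 replicates 1 to 4, and 205, 281, 152 and 63.2 CPM in the 4 day 7 libraries. It was 315, 788, 390 and 261 CPM at day 14, and 377, 525 and 284 CPM at day 21. Every library of days 14 and 21 lay above every library of day 0, and at day 7 replicates 1 to 3 lay above and replicate 4 below all of day 0. Over all genes tested, 16.7% had day 14 wholly above day 0 and 19.4% had day 21 wholly above day 0.

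The changes in Msln were tested with edgeR's quasi-likelihood test, a gene being called where the Benjamini-Hochberg adjusted p over all genes was under 0.05 and the fold change over 1.5. The log2 fold change against day 0 was 2.28 (SE 0.408, adjusted p = 0.000635) at day 14 and 2.13 (SE 0.424, adjusted p = 0.0016) at day 21. At day 7 it was 0.96 (SE 0.394, 95% interval 0.12 to 1.80, adjusted p = 0.0851) and was not called. This last result lay near the threshold and moved past it in 3 alternatives. Without day 7 replicate 4 the log2 fold change was 1.24 (adjusted p = 0.019), and with all libraries kept it was called without the filter on low counts (adjusted p = 0.0417) and with a replicate block (adjusted p = 0.0244). Msln was called higher at days 14 and 21 in every alternative fit that was run, with log2 fold changes of 1.82 to 2.71 and of 1.83 to 2.28.

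Between the later days the difference in Msln was close to the threshold. Day 14 exceeded day 7 by 1.32 on the log2 scale (95% interval 0.48 to 2.16, adjusted p = 0.0543 by edgeR), with overlapping libraries, and DESeq2 called it with an adjusted p of 0.0299. Day 21 exceeded day 7 by 1.17 (95% interval 0.28 to 2.06, edgeR adjusted p = 0.0738), and each of its 3 libraries lay above all day 7 libraries, which held for 14.6% of genes tested. These differences were called without day 7 replicate 2, at adjusted p of 0.0392 and 0.041, and that of day 14 also without day 14 replicate 1 (0.0433) or replicate 4 (0.0425). Without day 14 replicate 2 the day 14 difference was 0.88 (adjusted p = 0.194) and without day 7 replicate 4 it was 1.04 (0.112), and over all alternatives the adjusted p ran from 0.00762 to 0.344 at day 14 and from 0.0159 to 0.402 at day 21. Day 21 differed from day 14 by -0.15 (95% interval -1.04 to 0.74, adjusted p = 0.926).

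**Figure D1:**
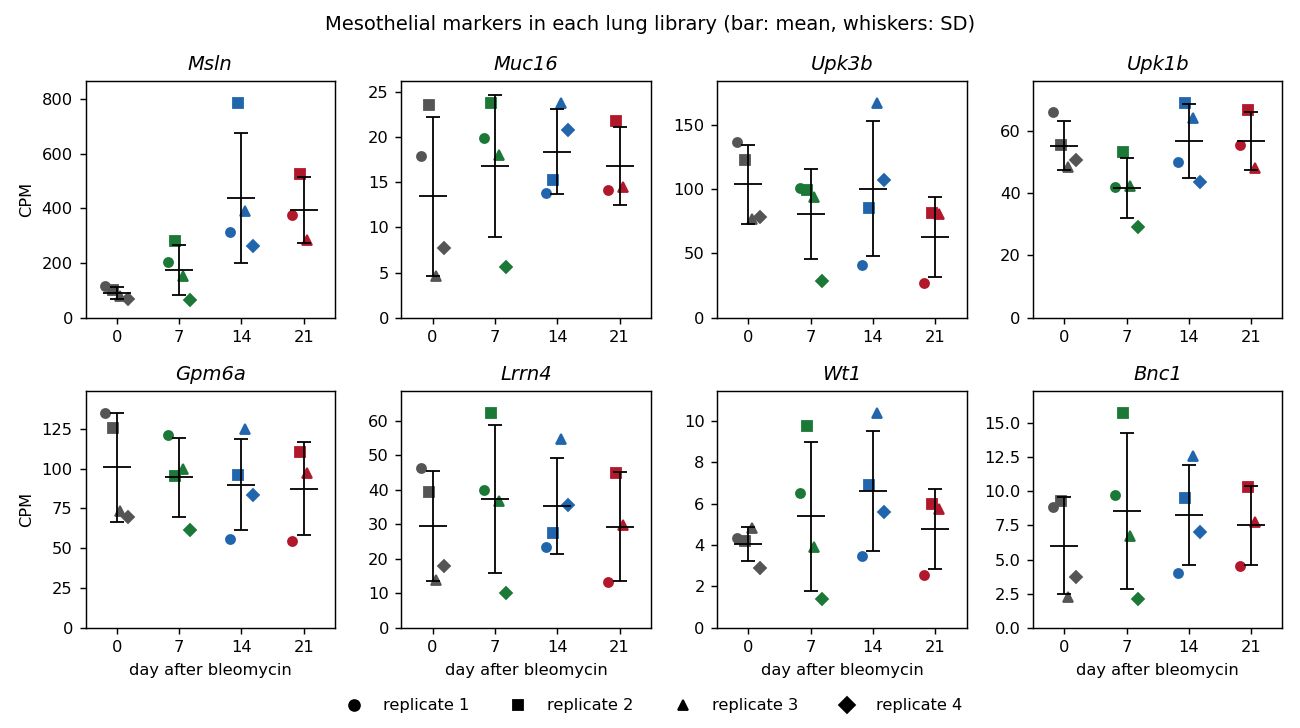
CPM (y axis, from 0, a scale of its own in each panel) of the 8 mesothelial markers by day after bleomycin (x axis). Each symbol is 1 library with its shape giving the replicate number, bars are means and whiskers the SD. Msln rises from 68.6 to 114 CPM at day 0 to between 261 and 788 CPM at day 14, and day 7 replicate 4 (green diamond) lies lowest of its day in all 8 panels.

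Counted over the 8 markers, 0 were called at day 7, where 16.1% of all genes tested were called (8.78% higher and 7.36% lower). At day 14, 1 of the 8 was called higher and none lower, against 23.1% of genes called (12% higher and 11.2% lower). At day 21 it was again Msln alone, 1 of 8, against 22.5% of genes (12.4% higher and 10.1% lower). At day 7, 2 of the 8 had an unadjusted p under 0.05 (Msln and Upk1b), as had 38.2% of all genes, and DESeq2 called none of the 8 either, beside 9.88% of all genes. At days 14 and 21 an unadjusted p under 0.05 was met by 1 of the 8 each, and by 43.3% and 40.5% of all genes. The median log2 fold change of the 8 markers was 0.335, 0.359 and 0.138 at days 7, 14 and 21, beside 0.00963, 0.0163 and 0.0243 over all genes tested. In the comparisons of day 14 with day 7, day 21 with day 7 and day 21 with day 14, edgeR called 0 of the 8, where it called 6%, 9.54% and 0% of all genes. Their numbers at an unadjusted p under 0.05 were 2, 2 and 0, beside 25%, 30% and 9.82% of all genes, and DESeq2 called 1, 0 and 0, beside 4.99%, 6.88% and 0.323% of all genes.

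Muc16 encodes the very large membrane mucin known as CA125, the binding partner of mesothelin on the surface of mesothelial cells (chr9:18495455-18674530, minus strand). It measured 17.9, 23.6, 4.63 and 7.69 CPM in the day 0 libraries and 19.97, 23.9, 18 and 5.64 CPM at day 7. At day 14 it measured 13.8, 15.2, 23.8 and 20.8 CPM and at day 21 14.1, 21.8 and 14.5 CPM. The 4 day 0 libraries spanned nearly the whole range of the series. The log2 differences from day 0 were 0.33 (95% interval -0.62 to 1.27, edgeR adjusted p = 0.624), 0.45 (-0.49 to 1.40, 0.465) and 0.32 (-0.69 to 1.34, 0.652) at days 7, 14 and 21. At day 14 this value depended on the libraries, as it was 1.68 and called within those of higher mitochondrial share (adjusted p = 0.00669) and -0.21 in those of low heart muscle signal. The difference between the changes of these 2 genes was not tested.

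The uroplakins are membrane proteins first described in the urothelium, and Upk3b and Upk1b are also made by mesothelium. Upk3b (chr5:136038496-136046487, plus strand), whose promoter holds the TEAD letters shown above, measured 137, 123, 76.9 and 78.1 CPM at day 0 and 101, 99.4, 93.8 and 28.4 CPM at day 7. Its day 14 libraries spread from 40.8 through 85.3 and 107 to 167 CPM, and those of day 21 held 26.9, 81.6 and 80.2 CPM. It had its lowest levels in day 21 replicate 1 and day 7 replicate 4, both libraries with high heart muscle markers. Its differences from day 0 were -0.36 (95% interval -1.30 to 0.57, edgeR adjusted p = 0.577), -0.05 (-0.98 to 0.88, 0.944) and -0.72 (-1.74 to 0.30, 0.284) at days 7, 14 and 21.

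Upk1b (chr16:38773184-38800328, minus strand), a tetraspanin, had the smallest standard error of the 8 in each comparison with day 0 (0.181 at day 7). It measured 66.2, 55.6, 48.5 and 50.8 CPM at day 0, and 42.1, 53.2, 42.3 and 29.3 CPM at day 7. At day 14 it stood at 50.1, 69.2, 64.2 and 43.5 CPM and at day 21 at 55.7, 66.8 and 48.2 CPM. Of the day 7 libraries, 3 lay below every day 0 library, with an overlap through replicate 2. The day 7 difference of -0.41 (95% interval -0.79 to -0.02) was not called, with an edgeR adjusted p of 0.112. Both later days stood 1.36-fold above day 7, also without a call (adjusted p = 0.141 and 0.134). The differences of days 14 and 21 from day 0 were 0.04 each, with intervals of -0.35 to 0.42 and -0.37 to 0.46.

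A pair of membrane proteins with roles best known in neurons belongs to the set. Gpm6a (chr8:54954843-55060871, plus strand) encodes a proteolipid membrane protein of growing neurites and measured 135, 126, 73.4 and 69.8 CPM at day 0. It held 121, 95.6, 99.9 and 61.6 CPM at day 7, 55.7, 95.8, 125 and 83.2 CPM at day 14, and 54.6, 110 and 97.2 CPM at day 21. The groups overlapped throughout, and the differences from day 0 ran only from -0.09 (day 7) to -0.21 (day 21, 95% interval -0.87 to 0.46, edgeR adjusted p = 0.657).

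Lrrn4 (chr2:132868305-132880891, minus strand), a leucine-rich repeat protein of neurons and mesothelium, measured 46.4, 39.3, 13.8 and 17.9 CPM at day 0. It measured 39.8, 62.3, 36.7 and 9.98 CPM at day 7, 23.4, 27.4, 54.5 and 35.5 CPM at day 14, and 13.3, 44.7 and 29.7 CPM at day 21. Within each day its highest library exceeded its lowest by more than the means of any pair of days differed. The log2 differences from day 0 were 0.34, 0.26 and 0.00, with 95% intervals of -0.70 to 1.39, -0.78 to 1.31 and -1.14 to 1.13 and edgeR adjusted p of 0.645, 0.717 and 0.999.

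The transcription factors were the lowest in CPM. Wt1 (chr2:105126529-105173616, plus strand), a zinc finger protein needed for the formation of mesothelium and kidney, measured 4.33, 4.17, 4.82 and 2.90 CPM at day 0. It measured 6.51, 9.76, 3.896 and 1.37 CPM at day 7, 3.48, 6.88, 10.4 and 5.61 CPM at day 14, and 2.53, 5.98 and 5.76 CPM at day 21. Here 3 of the 4 day 14 libraries lay above every day 0 library and replicate 1 within them. The difference at day 14 was 0.70 (95% interval -0.28 to 1.69, edgeR adjusted p = 0.263), the largest after Msln, and those at days 7 and 21 were 0.41 and 0.23.

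Bnc1 (chr7:81966672-81992292, minus strand) encodes basonuclin 1, a zinc finger protein of keratinocytes, germ cells and mesothelium. It measured 8.86, 9.30, 2.22 and 3.73 CPM at day 0, and 9.73, 15.8, 6.70 and 2.14 CPM at day 7. At day 14 it measured 4.01, 9.49, 12.6 and 7.00 CPM and at day 21 4.51, 10.3 and 7.76 CPM. Its day 7 libraries alone spanned a range as wide as the other 3 days together. The differences were 0.51, 0.46 and 0.32 at days 7, 14 and 21 (edgeR adjusted p = 0.511, 0.539 and 0.713).

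**Figure D2:**
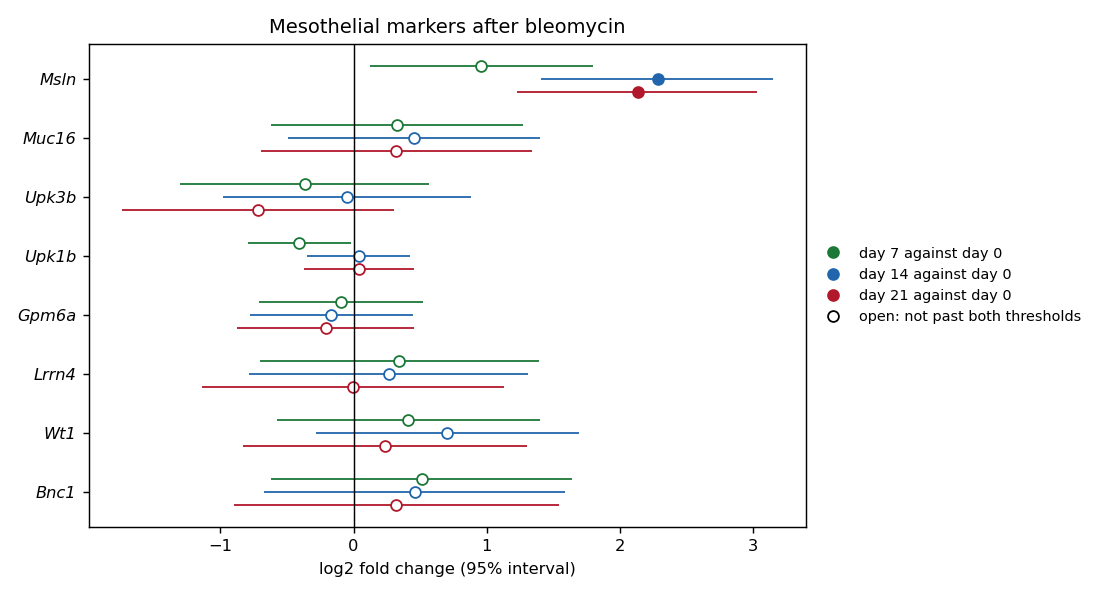
Log2 fold change against day 0 (x axis) of the 8 markers (y axis), with points for days 7, 14 and 21 and lines for the 95% interval. Filled points passed both thresholds, which only Msln did, at days 14 (2.28) and 21 (2.13); apart from Msln at all days and Upk1b at day 7 (-0.41), the intervals include 0.

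The spread between libraries of a day was shared by the markers. Day 7 replicate 4 was the lowest of its day for 8 of 8 markers, and day 21 replicate 2 the highest of its day for 8 of 8. Day 14 replicate 3 was the highest for 6 markers and day 14 replicate 1 the lowest for 6, day 7 replicate 2 the highest for 6, and day 21 replicate 1 the lowest for 6. At day 0, replicates 1 and 2 stood above the day 0 mean log2 level for 8 of 8 markers each, replicate 3 for 1 and replicate 4 for 0. The mean of the 8 markers, relative to day 0 on the log2 scale, ran from -0.52 to 0.50 within day 0 and from -1.11 to 0.85 within day 7.

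Other measures of the libraries were set beside this shared level. The heart muscle markers summed to 23.7 and 44.3 CPM in day 0 replicates 1 and 2, against 284 and 193 CPM in replicates 3 and 4. At day 7, replicate 4 held 645 CPM of them and replicates 1 to 3 from 27.3 to 57.8 CPM. They summed to 757 CPM in day 21 replicate 1 and to 18.8 and 24.9 CPM in replicates 2 and 3. All 4 libraries of high heart muscle signal were thus on the low side of their day for most of the mesothelial markers. At day 14 the sum was only 25.9 to 42.8 CPM, although Upk3b still differed between libraries from 40.8 to 167 CPM. Fat markers, among them Adipoq, summed to 127 CPM in day 7 replicate 4, while its 3 companions held 4.64 to 22.7 CPM. At day 0 they summed to 1.55 and 24.6 CPM in replicates 1 and 2 and to 51.6 and 45.9 CPM in replicates 3 and 4. Later sums were lower, at 0.4 to 0.649 CPM at day 14 and at 2.41, 0.228 and 0.705 CPM in day 21 replicates 1 to 3. The mitochondrial share had no one direction. It was 2.28% and 2.31% in day 0 replicates 1 and 2, which were high for the markers, and 4.22% and 4.04% in replicates 3 and 4, which were low. At day 14 the low replicate 1 had 2.1% and the high replicate 3 had 4.14%, and at day 7 replicate 4 had 2.09% beside 2.03% to 2.15% in its companions. The part of these measures in the results was not tested.

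**Figure D3:**
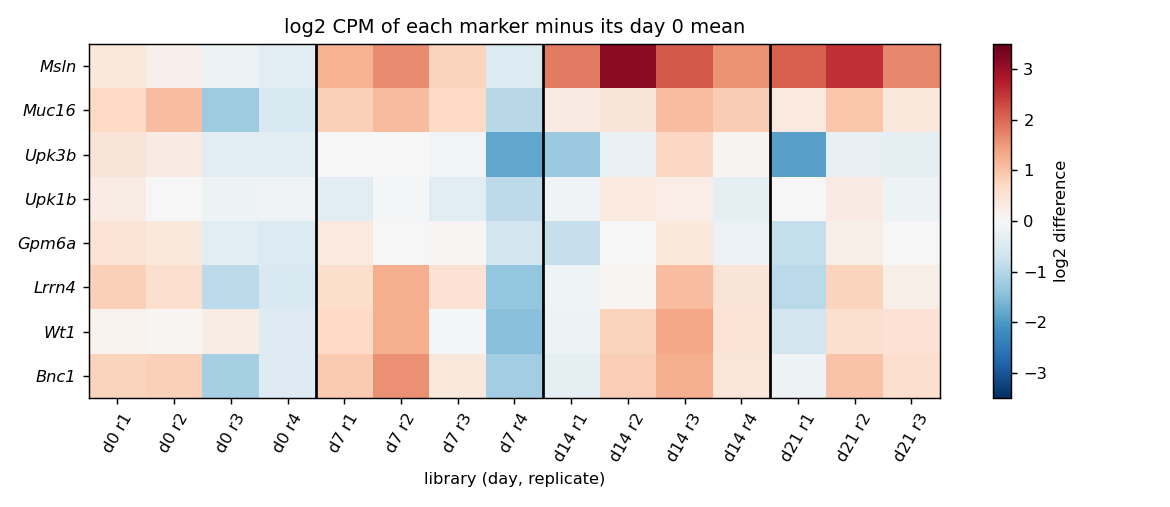
Log2 CPM of each marker (rows) in each of the 15 libraries (columns, d for day and r for replicate) minus the day 0 mean of that marker, red where higher and blue where lower. Columns tend to share a colour within a day, such as day 7 replicate 4 with 8 of 8 markers lowest, and the Msln row alone is deep red across days 14 and 21.

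Which libraries entered the fit changed the direction against day 0 for several markers but not for Msln. Among the libraries with a mitochondrial share over 3.5% (day 14 replicates 2 to 4 and day 0 replicates 3 and 4), 4 of the 8 markers were called higher at day 14, where edgeR called 8.78% of 16938 genes higher. These were Msln (2.71, adjusted p = 0.00603), Muc16 (1.68, 0.00669), Bnc1 (1.68, 0.0144) and Lrrn4 (1.29, 0.0187). The day 0 libraries kept there had the lowest mean of the 8 markers at day 0 (-0.524 and -0.407, relative to day 0). The day 14 library left out, replicate 1, had the lowest of day 14 (-0.095). Among the 11 libraries with under 100 CPM of heart muscle markers (which kept day 0 replicates 1 and 2), only Msln was called at day 14, by 2.00 (adjusted p = 0.00847, 10.1% of 17502 genes called higher). There Muc16, Bnc1 and Lrrn4 stood at -0.21, -0.16 and -0.31, and Gpm6a at -0.57 (adjusted p = 0.0986). At day 21 the same libraries again gave Msln alone, 1.88 higher (adjusted p = 0.0228, 7.59% of genes called higher), with no marker called at day 7 (4.26% of genes higher). In these libraries Msln exceeded day 7 by 1.06 at day 14 (adjusted p = 0.12, 1.86% of genes higher) and by 0.94 at day 21 (adjusted p = 0.221, 1.48% of genes higher). Libraries with a mitochondrial share under 2.5% (4 of day 7 and day 0 replicates 1 and 2) gave no call at day 7 either, with Msln at 0.70 (adjusted p = 0.311) and 7.54% of genes called higher. These sets were chosen after the values were seen.

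Set against the other markers of its own library, Msln had groups that overlapped less than those of its level. Its log2 CPM exceeded the mean of the other 7 markers by 1.80, 1.66, 2.33 and 1.99 at day 0 and by 2.73, 2.88, 2.57 and 2.66 at day 7. The excess was 4.15, 4.78, 3.21 and 3.25 at day 14 and 4.63, 4.02 and 3.46 at day 21. All day 7 libraries lay above all day 0 libraries, and all libraries of days 14 and 21 above all of day 7. By the same measure, taken for 17450 genes against the same 7 markers, 3.13% of genes had day 7 wholly above day 0, 0.338% had day 14 wholly above day 7 and 1.28% had day 21 wholly above day 7. By level alone these shares were 17.6%, 7.9% and 14.6%. Msln varied with each of the other markers within days (Pearson r = 0.512 to 0.929). A gene that does not follow the markers takes on their spread in this measure. The smaller shares therefore do not show how unusual Msln was. Day 7 replicate 4, which was lowest for Msln itself, had an excess of 2.66, close to the day 7 mean of 2.71 ± 0.13 (SD, n = 4). The mean excess was 1.95 ± 0.29 at day 0 (n = 4), 3.85 ± 0.76 at day 14 (n = 4) and 4.03 ± 0.58 at day 21 (n = 3).

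With the mean of the other 7 markers as a covariate in the edgeR fit, added after the values were seen, Msln differed from day 0 by 0.79 at day 7 (95% interval 0.15 to 1.44, adjusted p = 0.0668, with 9.06% of genes called higher). At days 14 and 21 the values were 2.1 (adjusted p = 0.000179) and 2.14 (adjusted p = 0.000237), with 12.1% and 12.5% of genes called higher. In that fit day 14 exceeded day 7 by 1.31 (adjusted p = 0.0214) and day 21 exceeded it by 1.35 (adjusted p = 0.0159), both called, where 2.91% and 5.29% of genes were called higher. Day 21 against day 14 was 0.04 (95% interval -0.65 to 0.73, adjusted p = 0.981).

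**Figure D4:**
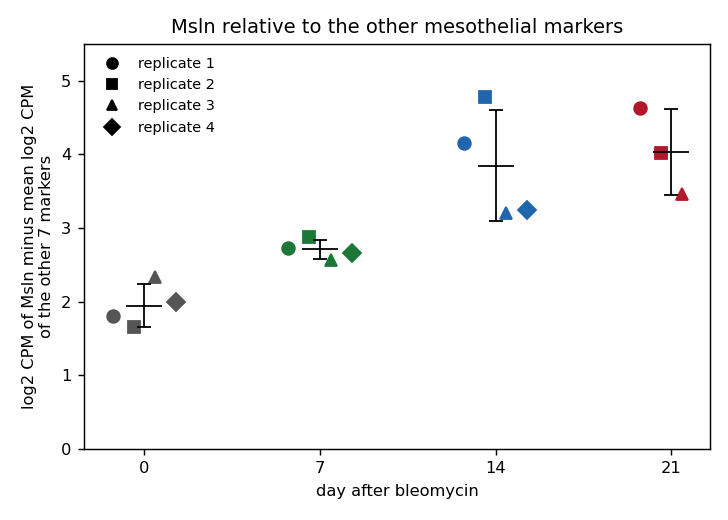
Log2 CPM of Msln minus the mean log2 CPM of the other 7 mesothelial markers (y axis) in each library, by day after bleomycin (x axis). Symbols are libraries, bars means and whiskers SD; the 4 day 7 libraries lie between 2.57 and 2.88, above day 0 and below days 14 and 21.

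A wider list of 14 genes that mesothelial cells also express was read beside the markers. Of these, 12 were tested, since Calb2 (calretinin, at most 2 reads in any library) and Itln1 (intelectin, at most 28) fell below the filter. Called higher were 6, 5 and 4 of the 12 at days 7, 14 and 21, and none was called lower, beside 8.78%, 12% and 12.4% of all genes called higher. In the 11 libraries with under 100 CPM of heart muscle markers these numbers were 4, 3 and 1, beside 4.26%, 10.1% and 7.59% of all genes. Calls lost there were those of Prg4 at all 3 days, Krt7 at days 7 and 21, Krt8 at day 14 and Krt18 at day 21. The log2 values there were 0.907 and 0.673 for Krt7, 0.566 for Krt8 and 0.32 for Krt18. In all libraries they were 1.004 and 0.757, 0.791 and 0.706. The call of Krt8 at day 14 was also lost within libraries of higher mitochondrial share, at 0.861 (edgeR adjusted p = 0.0514). The genes most restricted to mesothelium in this list, Aldh1a2, Rspo1, Nkain4 and Cldn15, and the transcription factors Tbx18 and Gata6 were not called at any day. Aldh1a2, which makes retinoic acid, had differences from day 0 of 0.22, 0.16 and -0.50 at days 7, 14 and 21 (95% interval at day 21, -1.42 to 0.43).

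The called genes of the wider list were keratins, podoplanin and lubricin. Keratins 7, 8, 18 and 19 are also made by lung epithelium and podoplanin by alveolar type 1 cells. Krt8 rose by 1.33 at day 7 and 0.79 at day 14, Krt18 by 1.38, 0.94 and 0.71, Krt7 by 1.004, 1.08 and 0.76, and Pdpn by 1.01, 1.16 and 0.82 at days 7, 14 and 21, on the log2 scale. The day 21 call of Krt18 was also lost without day 0 replicate 3 or 4 or day 21 replicate 1 (0.63, 0.61 and 0.48), and that of Krt7 without day 21 replicate 2 (0.54). Krt19 was called at day 7, by 1.05, and both Krt8 (-0.74, edgeR adjusted p = 0.042) and Krt19 (-0.79, adjusted p = 0.0392) were lower at day 21 than at day 7. The summed alveolar type 1 markers, which include Ager, stood at 5310 ± 986, 5460 ± 376 and 5910 ± 1010 CPM at days 0, 7 and 14 (SD, n = 4 each) and at 4830 ± 2090 at day 21 (n = 3). Within the 7 of them, Hopx was called lower at days 7 and 21 (-0.77 and -0.85), Rtkn2 lower at day 21 (-1.51) and Spock2 higher at days 14 and 21 (0.96 and 0.77). The summed airway markers stood at 30600 ± 3230 CPM at day 0 and 10800 ± 1210 CPM at day 7, and at 5530 and 3650 CPM at days 14 and 21. At days 0 and 7 Scgb1a1 alone made up 27900 ± 3090 and 9230 ± 981 CPM of this sum (n = 4 each). Of the 7 airway markers tested at day 7, 2 were called lower (Scgb1a1 and Cyp2f2) and 1 higher (Trp63, by 1.43). At day 14, 6 were lower and 0 higher, and at day 21, 3 were lower and 1 higher. Over all genes, 7.36%, 11.2% and 10.1% were called lower at days 7, 14 and 21, and 8.78%, 12% and 12.4% higher. Alveolar type 2 markers summed to 29300 CPM at day 0 and 6660 CPM at day 21 (6 of 6 called lower), and activated fibroblast markers to 1340 and 10400 CPM (6 of 6 called higher). The part of these cells in the keratin and Pdpn results was not tested.

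Prg4, which encodes lubricin, the boundary lubricant of joints and serous surfaces, had the largest fold changes of this list. It measured 3.10, 5.01, 1.27 and 1.67 CPM at day 0 and 6.79, 24.3, 4.61 and 4.99 CPM at day 7. It stood at 15.8, 29.1, 9.54 and 4.40 CPM at day 14 and 30.4, 26.5 and 9.70 CPM at day 21. All 3 day 21 libraries lay above day 0, whereas day 14 replicate 4 and day 7 replicates 3 and 4 lay within its range. The log2 fold changes were 1.88, 2.41 and 3.002 at days 7, 14 and 21 (edgeR adjusted p = 0.0479, 0.0116 and 0.00449). The day 7 value rested largely on replicate 2, without which it was 0.98 (adjusted p = 0.258), and its call was also lost without day 0 replicate 1, 3 or 4 or day 7 replicate 1 (adjusted p = 0.0817, 0.128, 0.131 and 0.0655). Within libraries of lower mitochondrial share it was 1.31 (adjusted p = 0.217), and with the mitochondrial covariate 1.63 (0.213), both without a call. The call was lost too with RLE scaling (0.0519), a filter at a mean of 1 CPM (0.051) and a tested fold threshold (0.218). The day 14 call was lost without day 14 replicate 2 (1.82, adjusted p = 0.0519), and in the 11 libraries of low heart muscle signal the values were 1.51, 1.82 and 2.12 (adjusted p = 0.284, 0.129 and 0.136).

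Genes that share a family name with the markers, called paralogues here, were read beside them. The list does not hold whole families, and relatives such as Mslnl and Upk3bl lie outside it. Of 10 paralogues tested, 2 were called higher and 0 lower at day 7, 2 and 2 at day 14, and 3 and 3 at day 21. Over all genes the shares higher and lower were 8.78% and 7.36%, 12% and 11.2%, and 12.4% and 10.1%. The number called in either direction was 1, 4 and 2 in the 11 libraries of low heart muscle signal, where 7.22%, 20.4% and 14.9% of all genes were called, and the 2 of day 7 became 1 without day 0 replicate 1 or 3 or day 7 replicate 1, 3 or 4. In the leucine-rich repeat family, Lrrn2 was higher at all 3 days by 1.92, 2.14 and 2.17, and Lrrn1 at days 14 and 21 by 3.94 and 4.43 (edgeR adjusted p = 0.00149 and 0.000876). Lrrn1 had a mean of only 0.154 ± 0.183 CPM at day 0 (n = 4), with 2 libraries at 0, and reached 2.46 ± 1.5 at day 14 (n = 4) and 3.44 ± 0.599 at day 21 (n = 3). With a library left out its log2 values ran from 3.49 to 4.76 at day 14 and from 3.97 to 5.24 at day 21. Lrrn3 went the other way, from 10.8 ± 2.35 CPM at day 0 (n = 4) to 3.25 ± 0.696 at day 14 (n = 4), a difference of -1.73 (adjusted p = 0.000149).

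Among the uroplakins, Upk2 was lower at days 14 and 21, by -2.70 and -3.02 (edgeR adjusted p = 0.00232 and 0.00319), at levels near 1 CPM or below. Its day 21 value was -4.79 without day 21 replicate 2 and -2.51 without replicate 3. Upk1a and Upk3a were not called. Of the mucins, Muc4 was called higher at days 7 and 21, by 1.13 and 1.18 (adjusted p = 0.0291 and 0.0264). Its day 7 call was the one lost above, and that of day 21 was lost without day 0 replicate 1 or 3 (1.03 and 1.01) or day 21 replicate 1, which held 82.1 CPM and without which the value was 0.58 (adjusted p = 0.269). Muc1, made by alveolar and airway epithelium, was lower at day 21 by -1.25 (adjusted p = 0.00221). In the 11 libraries of low heart muscle signal the calls lost were Muc4 at both days and, at day 21, Muc1 (-1.08), Lrrn3 (-1.03) and Upk2 (-2.81), and within libraries of higher mitochondrial share Lrrn2 at day 14 (1.25, adjusted p = 0.0551). Bnc2 and Gpm6b were not called against day 0.

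**Figure D5:**
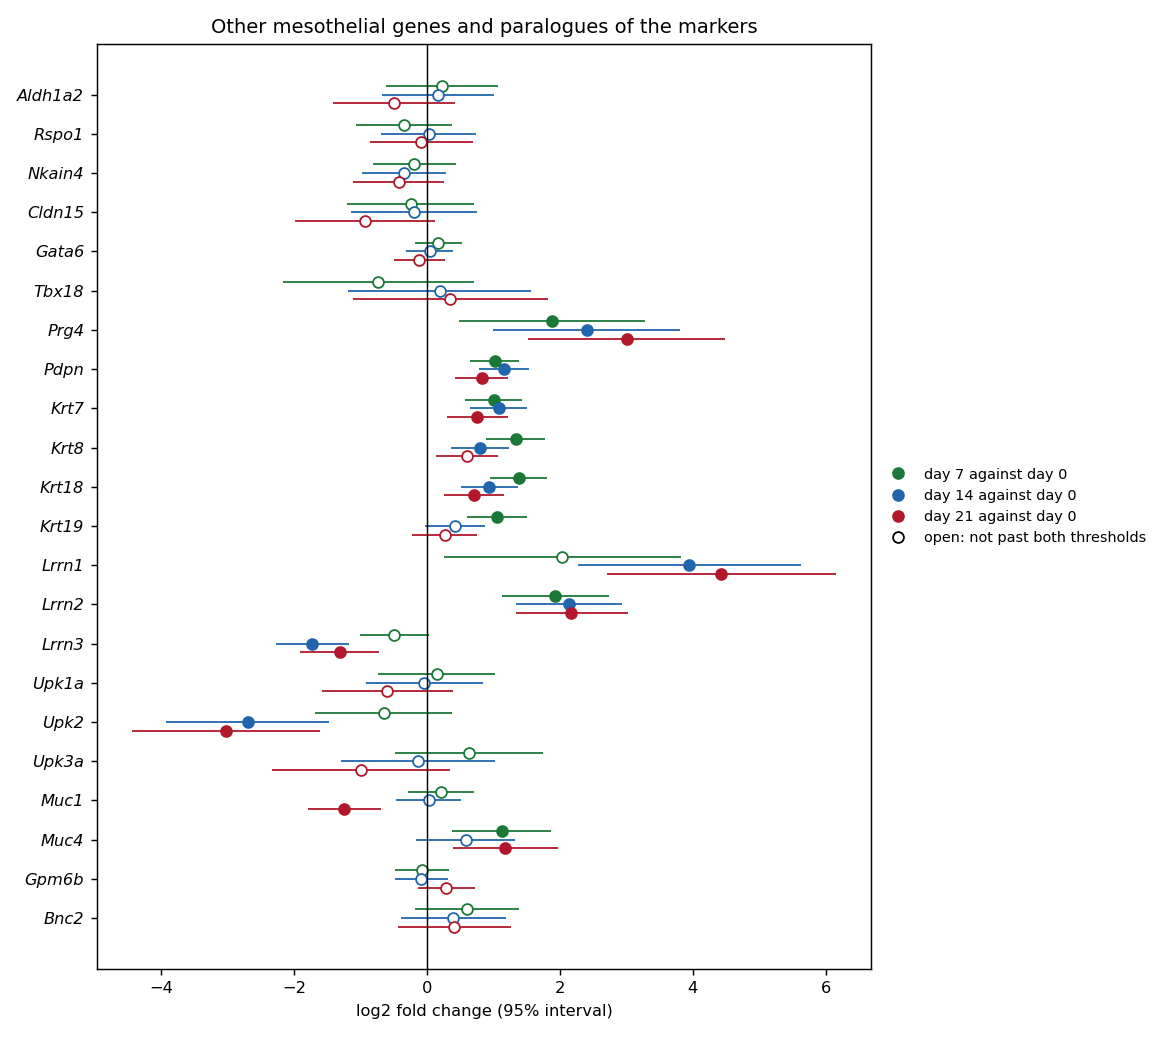
Log2 fold change against day 0 (x axis) of 12 other mesothelial genes and 10 paralogues of the markers (y axis), with 95% intervals as lines and filled points where both thresholds were passed. Prg4 (3.002 at day 21) and Lrrn1 (4.43 at day 21) lie farthest right, and Aldh1a2, Rspo1, Nkain4 and Cldn15 have open points at all 3 days.

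Neighbouring genes could share reads with the markers where strand was not used in counting. Mslnl, a relative of Msln whose 3′ end faces it, had between 0 and 31 reads in a library, far fewer than the 1063 to 12370 reads of Msln. Its log2 fold change was 2.90 at day 14 (edgeR adjusted p = 0.0336) and 2.87 at day 21 (adjusted p = 0.0456), and it was singled out after its values were seen. The exons of Bnc1 overlap those of a pseudogene on the opposite strand, 4833418N17Rik, over 98 bases, 2.11% of their length, and that pseudogene held at most 2 reads. The antisense gene Wt1os held at most 6 reads and Upk3bl at most 8.

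The genes whose levels followed the mean of the 8 markers most closely were found over the 15 libraries among 15340 genes of at least 1 CPM. Pkhd1l1 came first (Pearson r = 0.968, Spearman rho = 0.879, and r = 0.96 without the 2 libraries farthest from the median). Crb2 (r = 0.913), Gpc3 (r = 0.882), Hal (r = 0.874) and Smpd3 (r = 0.807) followed, with rho of 0.886, 0.914, 0.771 and 0.893. Without the 2 farthest libraries r was 0.915, 0.874, 0.763 and 0.796, which put Hal below Smpd3. The libraries share days and whatever set the level of all 8 markers in each, so these values are a description.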

How the data were processed

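Paired-end reads of 150 bp were trimmed and aligned by the authors to mm10 (GRCm38), and the deposited table holds raw counts of reads per gene without multiply mapped reads. The submitters' processing notes name HISAT2 2.1.0, HTSeq 0.6.0 and DESeq2 1.40.2. The strand setting and the annotation release are not given in the sources used here. Symbols and exon lengths came from GENCODE M21, which matched 33267 of 33340 gene IDs.

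Libraries were grouped by day from their titles. The counts of all genes were fitted together with edgeR 4.0.16 in R 4.3.3, using TMM factors, its expression filter, day as the only term and the quasi-likelihood test, and log2 values used a prior count of 2. A gene was called at a Benjamini-Hochberg adjusted p under 0.05 over 17457 genes and a fold change over 1.5. CPM used TMM-scaled library sizes and error terms are SD. The intervals shown are 95% intervals from the fitted standard errors. All 8 markers are given, as are the called genes of the wider list and of the paralogues and the 5 genes closest to the markers' mean. A further relative of the markers, beyond those named, is not reported here. The markers and lists were chosen with earlier results of these data known. Each library was counted as 1 sample. Libraries of a day differed by a chi-square of at least 10.9 per gene, which cannot tell separate animals from separate samples of 1 animal.

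Alternatives were DESeq2 1.42.0, other scalings and filters, each comparison alone, a replicate block, the mitochondrial share as a covariate, no or a tested fold threshold, and each library left out. The fitting code was tested on simulated data.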

Additional observations from a re-analysis of the deposited data

Results flagged for a closer look

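One value stood apart from its group. The level of Upk3b in replicate 4 of day 7 was 28.4 CPM, whereas replicates 1 to 3 lay between 93.8 and 101 CPM, a gap of 0.906 of the range by Dixon's criterion. Over the 24 groups of 4 libraries examined for the 8 markers, 1 was singled out, and chance alone singles out about 5% of such groups. The same library was the lowest of day 7 for 8 of 8 markers and held 645 CPM of heart muscle markers, whose part was not tested.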

How the results depend on the processing

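Of the alternatives, all kept Msln called higher at days 14 and 21. At day 7 the number of markers called was 1 (Msln) in place of 0 without the expression filter (8.84% of all genes called), and 0 to 1 with a library left out (1 without day 7 replicate 4, with 15.7% of genes). For day 14 against day 7 it was 1 (Msln) with DESeq2 (4.99%) or without the filter (3.9%), for day 21 against day 7 it was 1 without the filter (5.63%), and both ran from 0 to 1 with a library left out. For day 14 against day 0 it was 4 within libraries of higher mitochondrial share (17.7% of all genes). With a library left out, the other mesothelial genes called numbered 5 to 6, 4 to 5 and 3 to 4 and the paralogues 1 to 2, 4 to 4 and 5 to 6 at days 7, 14 and 21. Requiring a fold over 1.5 within the test (glmTreat) left 2, 3 and 1 other mesothelial genes at these days and 1 paralogue at day 7. In that test 4.03%, 10.1% and 10% of all genes were called. Low heart muscle signal left 3 and 1 other mesothelial genes at days 14 and 21, and 1 and 2 paralogues at days 7 and 21. There 7.22%, 20.4% and 14.9% of all genes were called at days 7, 14 and 21. The mitochondrial covariate left 1 paralogue at day 7 (7.27% of all genes).

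Whether replicate numbers pair the libraries was not settled. Same-number deviations correlated by -0.244 to 0.397 over 21 pairs (8 over 0.1). Their median was 0.0406, beside -0.032 for different numbers, and 7 of 15 libraries matched their own number best. A replicate block called 1 marker (Msln) at day 7 and 1 in day 14 and in day 21 against day 7 (16.7%, 6.78% and 9.46% of all genes), and turned Upk1b to -0.0778 and Wt1 to -0.0474 at day 21.

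Signs of markers that were not called turned as follows. The mitochondrial covariate gave Muc16 -0.00596 at day 7, Upk3b 7.47e-06 at day 14 and Lrrn4 0.13 at day 21. Lower mitochondrial share gave Lrrn4 -0.22, Muc16 -0.32 and Bnc1 -0.0937 at day 7, and higher share Upk3b 0.61 and Gpm6a 0.49 at day 14. Low heart muscle signal gave Muc16 -0.0531 at day 7. At day 14 it gave Upk1b -0.13, Lrrn4 -0.31, Muc16 -0.21 and Bnc1 -0.16, and at day 21 Upk1b -0.11, Muc16 -0.23 and Bnc1 -0.0399. The covariate of the other 7 markers gave Msln 0.0377 for day 21 against day 14. With a library left out, log2 differences at day 7 ran from -0.26 to 0.0643 for Gpm6a, -0.0433 to 0.73 for Wt1 and -0.023 to 0.66 for Lrrn4. At day 14 they ran from -0.41 to 0.19 for Upk3b, -0.0919 to 0.15 for Upk1b and -0.027 to 0.55 for Lrrn4. At day 21 they ran from -0.48 to 0.31 for Lrrn4, -0.45 to 0.00671 for Gpm6a, -0.13 to 0.11 for Upk1b and -0.0094 to 0.58 for Bnc1, and Msln in day 21 against day 14 from -0.42 to 0.29. The cause of these turns was not tested.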
